A study of Rattus norvegicus with 11 samples.

Results

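Chemokines and their receptors were examined in the left dentate gyrus of rats after lateral fluid-percussion injury (FPI), a model of traumatic brain injury in which a pulse of fluid hits the exposed dura. The genes were chosen by symbol alone, as those named Ccl, Cxcl, Ccr, Cxcr or Ackr with a number, and Xcl1, Xcr1 and Cx3cl1, that had a probe set of their own on the array. Family members with other names, such as the CXC ligands Pf4 and Ppbp and the receptor Cx3cr1, were read as partners of the pathway instead. This gave 53 genes of the 17245 measured by a probe set with a single gene symbol: 21 CC and XC ligands, 12 CXC and CX3C ligands, 17 signalling receptors and 3 atypical receptors. The RNA of 11 male Sprague-Dawley rats was hybridised, 1 array per rat, from 6 rats 90 days after FPI and 5 sham rats of the same time. Both groups had the same anaesthesia and a craniectomy over the left parietal lobe, and only the FPI rats received the impact. No transgene or drug treatment separated the groups, and the age of the rats, adults, is not given in the sources used here. The labels do not name litters or surgery days, so the p-values measure the spread between these rats only. The dissected piece held the dentate gyrus and the hilus, so fewer cells of a type and less RNA per cell cannot be told apart.

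Chemokines are small secreted proteins that draw cells along a gradient by binding receptors coupled to inhibitory G proteins. Inflammatory members such as Ccl2 and Cxcl10 are made on demand and recruit monocytes and lymphocytes, whereas Cxcl12, Cx3cl1 and Cxcl14 are made constantly in many tissues. In the dentate gyrus Cxcl12 guides granule cell precursors through Cxcr4, and Cx3cl1 on neurons signals to Cx3cr1 on microglia. Atypical receptors bind chemokines and remove them without G protein signalling. These ligand and receptor pairs are known mostly from human and mouse.

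Of the 53 genes, 41 matched a protein-coding gene with a promoter sequence in RefSeq on the GRCr8 assembly. Shown first are the 250 bases before the gene start of Cxcl14 and Cxcl10, the ligands with the highest mean differences between the groups, and then those of Cxcl12 and Cx3cl1, constitutive ligands of the hippocampus. Each is written 5′ to 3′ on the strand of its gene, and capitals mark matches to 5 motifs searched on both strands.
Cxcl14, chr17:8322900-8323149, plus strand: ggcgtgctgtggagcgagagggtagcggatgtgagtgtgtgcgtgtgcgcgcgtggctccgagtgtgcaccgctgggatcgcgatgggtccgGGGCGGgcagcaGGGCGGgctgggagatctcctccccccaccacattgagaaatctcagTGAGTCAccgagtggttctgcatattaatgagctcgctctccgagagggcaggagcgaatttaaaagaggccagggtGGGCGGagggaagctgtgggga
Cxcl10, chr14:15988816-15989065, plus strand: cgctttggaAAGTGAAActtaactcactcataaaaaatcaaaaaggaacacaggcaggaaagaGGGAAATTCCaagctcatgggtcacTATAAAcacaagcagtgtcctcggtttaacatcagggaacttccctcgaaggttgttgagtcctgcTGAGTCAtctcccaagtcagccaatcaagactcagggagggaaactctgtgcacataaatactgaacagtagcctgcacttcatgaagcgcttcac
Cxcl12, chr4:152060531-152060780, plus strand: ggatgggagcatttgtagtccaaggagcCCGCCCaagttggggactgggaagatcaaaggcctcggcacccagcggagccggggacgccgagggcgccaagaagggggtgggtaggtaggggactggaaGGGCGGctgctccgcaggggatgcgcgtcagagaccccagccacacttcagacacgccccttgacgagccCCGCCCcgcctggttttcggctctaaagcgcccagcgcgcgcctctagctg
Cx3cl1, chr19:10242821-10243070, minus strand: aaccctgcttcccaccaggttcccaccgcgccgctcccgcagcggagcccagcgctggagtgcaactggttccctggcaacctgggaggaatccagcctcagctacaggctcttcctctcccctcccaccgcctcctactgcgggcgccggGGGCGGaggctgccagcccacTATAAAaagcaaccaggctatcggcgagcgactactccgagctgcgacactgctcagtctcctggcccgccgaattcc

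The motifs were the NF-kappaB consensus, the interferon regulatory factor element AANNGAAA, the AP-1 site TGANTCA and the TATA box TATAAA. The last was the GC box, spelled GGGCGG. The AP-1 site reads the same on both strands. In the Cxcl10 window the NF-kappaB match began at base -187 from the gene start, the interferon element at -241 and the AP-1 site at -96. The Cxcl14 window held an AP-1 site at -99 and 3 GC boxes but no NF-kappaB match. The Cxcl12 window held GC boxes only, and that of Cx3cl1 a GC box and TATAAA. Over the 41 promoters, 8 (19.5%) held the NF-kappaB consensus, against 3.74% of 19005 protein-coding promoters of the same length. These 8 were Ccl9, Ccl20, Ccr3, Cxcl1, Cxcl2, Cxcl6, Cxcl10 and Cxcl11. Ccl2 and Ccl3 were among the genes without a promoter sequence and were not searched. TATAAA was in 29.3% of the 41 and 12.3% of all, the AP-1 site in 17.1% and 5.82%, the interferon element in 24.4% and 21.6%, and the GC box in 24.4% and 40.3%. A match is a description of the letters and not a bound site.

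The values are log2 signals, normalised together by the authors. The signal of a probe set depends on its probes, so an order of signals is not an order of RNA levels. The order served only to choose which genes are shown rat by rat, and signals were set against those of genes not used in brain. Of 60 olfactory receptor genes, the receptors of the nose, 95% had a mean at or below 4.73 over the 11 arrays. By this mark 17 of the 53 genes stood above background and 36 were near it, where 67.7% of all single-gene probe sets stood above. Just above lay Xcl1 at 4.75 and Cxcl10 at 4.77, and just below Cxcl1 at 4.70 and Ccl11 at 4.66. Cxcl10 passed only through the FPI rats, since its sham mean of 4.63 was under the mark. With a mean of at least 5 as the mark instead, 13 genes stood above it. The highest olfactory receptor mean was 5.475, and several of the 17 genes lay under it. Among them were Ccl5 at 5.42, Ccr7 at 5.31 and Ccl3 at 4.97, so that above background means above the mark only. All 53 genes passed the filter on low values used for testing, and none had a value at the background floor.

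Of 7 genes of dentate granule cells, 6 stood above the olfactory mark, as did 67.7% of all single-gene probe sets. The count therefore cannot tell the dentate gyrus from other brain tissue. Prox1 had a mean of 9.29 and C1ql2 of 9.45, whereas Dsp lay just above the mark at 4.825 and Tdo2 below it at 3.33. Within the groups 1 component of the arrays held 63.9% of the variance, and sham rat 2, FPI rat 1 and FPI rat 3 stood apart on it with scores of 0.45, 0.49 and 0.42, where the others lay between -0.34 and 0.06. Values without these rats are given for the genes with per-rat values. The array medians lay between 5.26 and 5.35, and the number of arrays limits the precision.

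None of the 53 genes passed an adjusted p of 0.05 in limma, fitted over 17905 probe sets, of which 27 (0.151%) passed. By an unadjusted p under 0.05, 4 stood higher after FPI (7.55%, where 4.96% of all probe sets were higher) and 0 were lower (where 1.87% of all were lower). The 4 were Cxcl14, Cxcl10, Ccl3 and Ccl2. All are ligands, as are most of the 53 genes, and none is a receptor. The share of 7.55% rests on 4 genes and lies near the share over all probe sets. Of the 17 genes above the olfactory mark 3 were higher (17.65%, where 5.5% of all probe sets above it were). Of the 36 near background 1 was higher (2.78%). The 3 include Cxcl10, which passed the mark only through the FPI rats, so the split is a description of few genes. The groups did not overlap in 1 gene, Ccl2, with FPI above sham, as was the case in 0.832% of all probe sets, and FPI lay wholly below sham in 0 of the 53 genes and in 0.207% of all. The median log2 fold change of the 53 genes was 0.020, beside 0.012 over all probe sets tested. Positive values were found in 34 of the genes and negative ones in 19, where 57.2% of all probe sets tested were positive. These directions depended on scaling: with each array centred on its median, 2 of the genes were higher and 2 lower by the unadjusted threshold, beside 2.85% and 4.03% of all probe sets, and the median of the 53 genes was -0.0089.

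**Figure D1:**
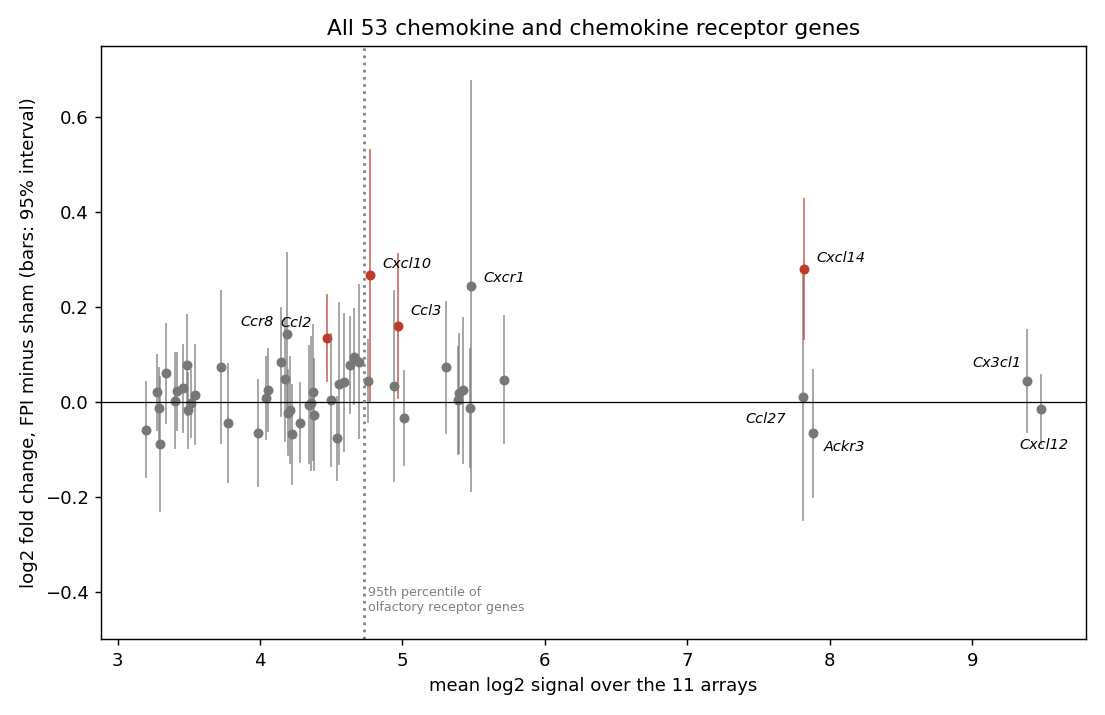
Log2 fold change (FPI minus sham, vertical axis, with its 95% interval from limma) against the mean log2 signal over 11 arrays (horizontal axis) for the 53 genes. Red marks the 4 genes with an unadjusted p under 0.05, the dotted line is the olfactory receptor mark of 4.73, and most points lie close to 0 on both sides of it.

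Cxcl14, a constitutive chemokine that also attracts monocytes and dendritic cells, was the gene with the lowest p of the family. Its log2 signal was 7.89, 7.73, 8.004, 8.14, 7.90 and 8.003 in FPI rats 1 to 6 and 7.65, 7.63, 7.74, 7.55 and 7.76 in sham rats 1 to 5. FPI rats 1, 3, 4, 5 and 6 lay above every sham rat, and FPI rat 2 fell within the sham range. The means were 7.94 ± 0.14 (SD, n = 6) and 7.66 ± 0.088 (SD, n = 5), a log2 fold change of 0.28 or 1.21-fold (standard error 0.068, 95% interval 0.13 to 0.43). Its unadjusted p was 0.0014 in limma and its adjusted p 0.23. The difference exceeded the SD of either group, but not the range of the FPI values, and did not pass over all probe sets. The unadjusted p stayed at 0.0051 or below whichever single rat was left out of the limma fit, with a log2 fold change from 0.24 to 0.32. Without the 3 rats that stood apart, the log2 fold change was 0.27 (adjusted p = 0.12). When the scores on the within-group component entered limma as a covariate, the adjusted p of Cxcl14 was 0.025, in a fit that called 5.28% of all probe sets. The component came from these same values less their group means. It could not move the log2 fold change and took most of the within-group variance out, so the lower p is no added support. Adjusted p-values of Cxcl14 over all alternatives ran from 0.025 to 0.999.

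Cxcl10, an interferon-induced ligand of Cxcr3, was high in some FPI rats only. Its log2 signal was 4.71, 4.84, 5.24, 4.63, 4.66 and 5.27 in FPI rats 1 to 6 and 4.77, 4.61, 4.61, 4.57 and 4.57 in sham rats 1 to 5. FPI rats 3 and 6 stood clear of all others and FPI rat 2 was just above the highest sham rat, while FPI rats 1, 4 and 5 lay among the sham rats. The means were 4.89 ± 0.29 (SD, n = 6) and 4.63 ± 0.081 (SD, n = 5), and the SD among FPI rats was 3.58 times that among sham rats. The log2 fold change was 0.27 or 1.20-fold (standard error 0.12, limma adjusted p = 0.72), with an unadjusted p of 0.048. That p stayed under 0.05 in 4 of the 11 fits with 1 rat left out, those without sham rat 1 or FPI rat 1, 4 or 5, and reached 0.10 without FPI rat 3. Without the 3 rats that stood apart the log2 fold change was 0.22, and the unadjusted p rose to 0.11 in limma (adjusted p = 0.37).

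Ccl3, a ligand of Ccr1 made by activated microglia, had log2 signals of 4.93, 5.22, 4.93, 5.16, 4.93 and 5.07 in FPI rats 1 to 6 and of 4.93, 4.84, 4.73, 4.89 and 5.01 in sham rats 1 to 5. FPI rats 2, 4 and 6 were above every sham rat. FPI rats 1, 3 and 5 and sham rat 1 had the same value, and such exact repeats were found in 30 of the 53 genes. The means were 5.04 ± 0.13 (SD, n = 6) and 4.88 ± 0.11 (SD, n = 5), a log2 fold change of 0.16 (standard error 0.069, 95% interval 0.0091 to 0.31). Its adjusted p was 0.69 and its unadjusted p 0.040 in limma. The unadjusted p was under 0.05 in 5 of the 11 fits with 1 rat left out, those without sham rat 1 or 5 or FPI rat 1, 3 or 5, and reached 0.11 without sham rat 3. Without the 3 rats that stood apart the log2 fold change was 0.21, with an unadjusted p of 0.022 in limma (adjusted p = 0.17).

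Ccl2, the monocyte attractant that binds Ccr2, had log2 signals of 4.62, 4.59, 4.47, 4.47, 4.48 and 4.56 in FPI rats 1 to 6 and of 4.42, 4.38, 4.46, 4.42 and 4.31 in sham rats 1 to 5. In contrast to the 3 other ligands, all 6 FPI rats lay above all 5 sham rats, but the gap between the lowest FPI and the highest sham value was 0.015. Every one of these values was under the olfactory mark of 4.73. The means were 4.53 ± 0.065 (SD, n = 6) and 4.40 ± 0.055 (SD, n = 5), a log2 fold change of 0.13 (standard error 0.042, 95% interval 0.044 to 0.23). Its adjusted p was 0.42 and its unadjusted p 0.0071 in limma, and the latter stayed at 0.023 or below whichever rat was left out. Without the 3 rats that stood apart the log2 fold change was 0.12, and the unadjusted p rose to 0.024 in limma (adjusted p = 0.175). Its receptor Ccr2 was near background at 3.50, with a log2 fold change of -0.017.

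**Figure D2:**
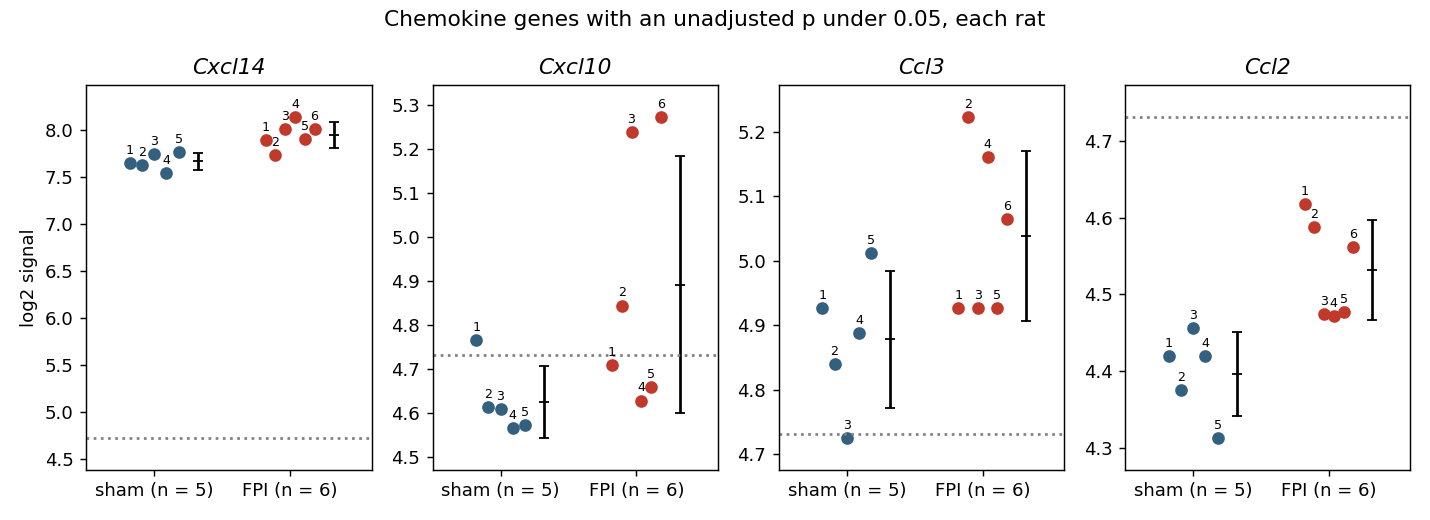
Log2 signal (vertical axis, a different range in each panel) of Cxcl14, Cxcl10, Ccl3 and Ccl2 in each sham rat (blue) and FPI rat (red), numbered by rat, with the group mean and SD in black and the olfactory receptor mark of 4.73 dotted. FPI rats 3 and 6 carry the high Cxcl10 values, and Ccl2 lies below the dotted line in every rat.

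**Figure D3:**
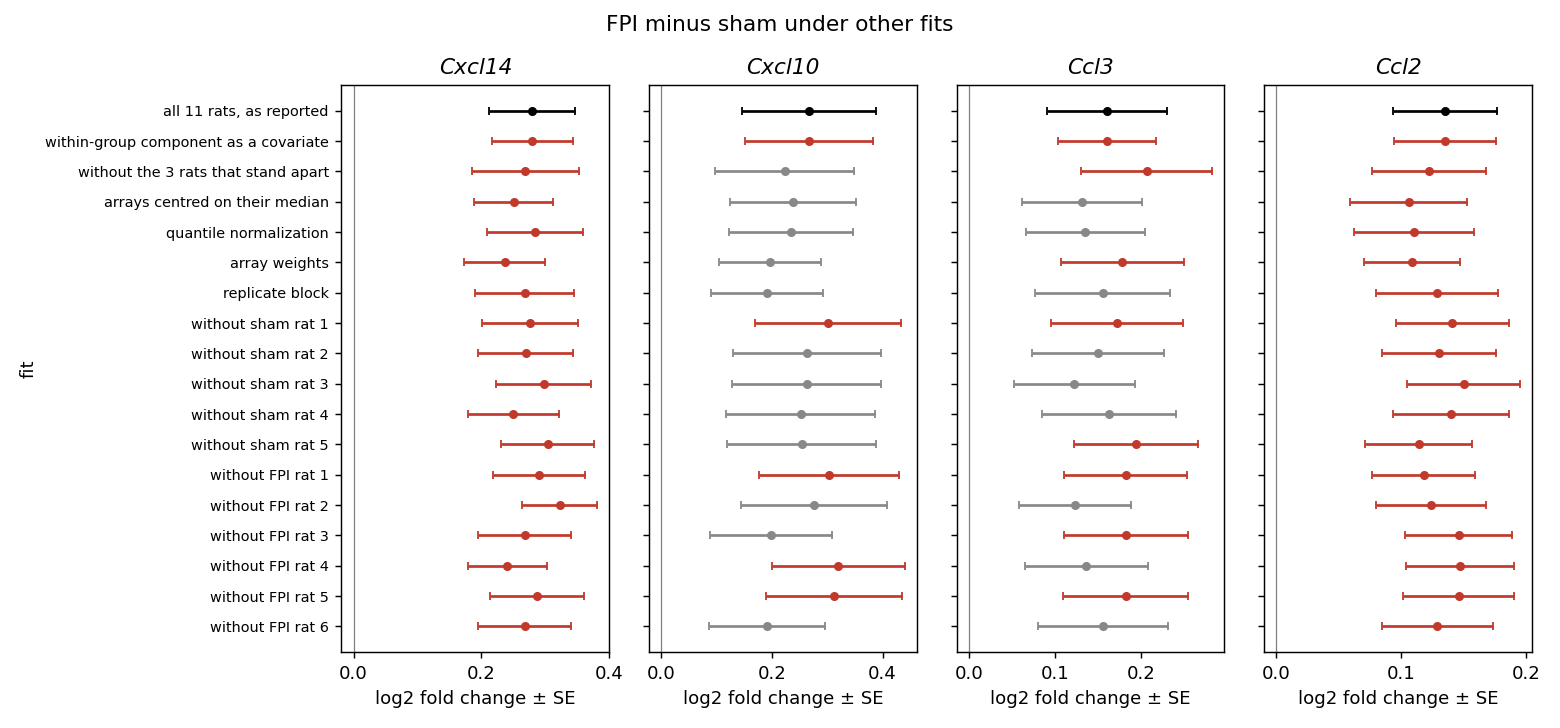
Log2 fold change (FPI minus sham, ± standard error, horizontal axis) of the same 4 genes in all rats (black) and under other fits (vertical axis), red where the unadjusted p was under 0.05 and grey where it was not. Cxcl14 and Ccl2 kept red points in every fit shown, and Cxcl10 and Ccl3 did not.

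The constitutive ligands Cxcl12 and Cx3cl1 had strong signals that hardly differed between the groups. Cxcl12, the ligand of Cxcr4 and Ackr3, had log2 signals of 9.47, 9.41, 9.50, 9.53, 9.47 and 9.47 in FPI rats 1 to 6 and of 9.47, 9.45, 9.48, 9.51 and 9.53 in sham rats 1 to 5. The groups overlapped throughout, and the log2 fold change was -0.015 with a 95% interval from -0.088 to 0.058. Cx3cl1, the membrane-bound chemokine of neurons, had log2 signals of 9.39, 9.50, 9.31, 9.39, 9.41 and 9.41 in FPI rats 1 to 6 and of 9.44, 9.39, 9.37, 9.20 and 9.39 in sham rats 1 to 5. Sham rat 4 was the lowest, and no FPI rat but rat 2 was above the sham range. The log2 fold change of Cx3cl1 was 0.044 with a 95% interval from -0.063 to 0.15. Adjusted p-values from limma were 0.96 for Cxcl12 and 0.91 for Cx3cl1, and a p that misses the threshold does not show equal levels. Cx3cl1 came to 0.0034 without sham rat 4 and to 0.079 without the 3 rats that stood apart, and Cxcl12 to -0.031 without these.

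Among the other CC and XC ligands with per-rat values, none separated the groups. Ccl27, a skin chemokine in human, had log2 signals of 7.42, 7.86, 7.91, 8.07, 7.88 and 7.76 in FPI rats 1 to 6 and of 8.13, 7.53, 7.80, 7.77 and 7.81 in sham rats 1 to 5. The extremes were FPI rat 1, the lowest, and sham rat 1, the highest, and the log2 fold change was 0.0095 with a 95% interval from -0.25 to 0.27. Without the 3 rats that stood apart the value for Ccl27 was 0.016. Ccl27 overlaps Il11ra1 in the genome, whose log2 fold change was 0.056.

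Ccl17, a ligand of Ccr4, had log2 signals of 5.68, 5.64, 5.69, 5.83, 5.69 and 5.88 in FPI rats 1 to 6 and of 5.85, 5.53, 5.71, 5.69 and 5.65 in sham rats 1 to 5, a log2 fold change of 0.046 (limma, adjusted p = 0.93). Only FPI rat 6 was above the sham range. The value ran from 0.0077 without sham rat 2 to 0.088 without sham rat 1, and was 0.033 without the 3 rats that stood apart. Ccl5, a T cell and monocyte attractant, had log2 signals of 5.28, 5.33, 5.29, 5.53, 5.54 and 5.65 in FPI rats 1 to 6 and of 5.48, 5.44, 5.44, 5.32 and 5.37 in sham rats 1 to 5. FPI rats 4, 5 and 6 lay above all sham rats, FPI rats 1 and 3 lay below all of them, and the SD among FPI rats was 2.52 times that among sham rats. The log2 fold change of Ccl5 was 0.024 (limma, adjusted p = 0.97), with no test made of the difference in spread. It was 0.107 without the 3 rats that stood apart and -0.018 without FPI rat 6.

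Among the CC and XC ligands, 21 in all, 16 had a positive and 5 a negative log2 fold change, with a median of 0.039. Of all probe sets tested 57.2% were positive. The 16 near background included Ccl11, which draws eosinophils, with 0.095 (adjusted p = 0.75). Ccl9, a rodent ligand of Ccr1, stood at -0.077 (adjusted p = 0.79). Ccl7 and Ccl12, monocyte attractants beside Ccl2, had log2 fold changes of -0.0028 and -0.059. Ccl4 had 0.041. The lymph node ligands of Ccr7, Ccl19 and Ccl21, had 0.039 and 0.048, and Xcl1, a product of lymphocytes, had 0.044. The remaining ligands were Ccl1 (0.020), Ccl6 (0.015), Ccl20 (0.0083), Ccl22 (-0.044), Ccl24 (0.078), Ccl25 (0.073), Ccl26 (0.084) and Ccl28 (-0.065).

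Of the 12 CXC and CX3C ligands, 9 had a positive and 3 a negative log2 fold change, with a median of 0.036. This count too is to be read against the 57.2% of all probe sets that were positive. The other interferon-induced ligands of Cxcr3 were near background, Cxcl9 with a log2 fold change of -0.044 and Cxcl11 with 0.060. The neutrophil attractants were near background too, with log2 fold changes of 0.085 for Cxcl1, 0.078 for Cxcl2, 0.0024 for Cxcl3 and 0.029 for Cxcl6. Cxcl13, which guides B cells, had the most negative value of all 53 genes at -0.089 (limma, adjusted p = 0.87). Cxcl17, a mucosal chemokine in human, stood above background with 0.0031.

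None of the 17 signalling receptors had an unadjusted p under 0.05 in limma, where 4.96% of all probe sets were higher and 1.87% lower. With 17 genes, a count of 0 cannot be told from these shares. Of the receptors 8 had a positive and 9 a negative log2 fold change, with a median of -0.0032. Only 5 stood above background: Cxcr1, Ccr3, Ccr7, Cxcr3 and Ccr10. Cxcr1, a receptor of neutrophil attractants, had log2 signals of 4.88, 5.77, 5.65, 5.85, 5.78 and 5.62 in FPI rats 1 to 6 and of 5.96, 5.10, 5.18, 5.47 and 5.01 in sham rats 1 to 5. FPI rat 1 was the lowest of all rats and sham rat 1 the highest, against the order of the other rats. The means were 5.59 ± 0.36 (SD, n = 6) and 5.35 ± 0.39 (SD, n = 5), so that the log2 fold change came to 0.24 (standard error 0.20, limma adjusted p = 0.88). Without sham rat 1 it was 0.40 and without FPI rat 1 it was 0.39, with unadjusted p-values of 0.044 and 0.030 in limma, and without the 3 rats that stood apart it was 0.35 (adjusted p = 0.30). A line fitted through the Cxcr1 signals, less their group means, changed by -0.59 on the log2 scale over the range of the within-group component, and the part of the component in the group difference was not tested.

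Ccr3, the eotaxin receptor, had log2 signals of 5.40, 5.54, 5.41, 5.41, 5.48 and 5.56 in FPI rats 1 to 6 and of 5.65, 5.33, 5.42, 5.53 and 5.48 in sham rats 1 to 5. Every FPI value lay inside the sham range, and the log2 fold change was -0.014 (limma, adjusted p = 0.98). It was -0.022 without the 3 rats that stood apart. A further Ccr3 probe set had a mean of 2.87 and did not pass the filter. Ccr7, which leads lymphocytes to lymph nodes, had 0.073, Ccr10, a receptor of Ccl27, had 0.033, and Cxcr3, the receptor of Cxcl10, had -0.034 at a mean of 5.01. In the genome Ccr3 overlaps Ccr1l1, and Ccr10 overlaps Cntnap1, which had a mean of 9.13 and a log2 fold change of -0.0565. Whether the overlapping genes add to the receptor signals was not tested.

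Of the 12 receptors near background, Ccr8 had the highest log2 fold change at 0.14 (adjusted p = 0.81) and Cxcr5, the receptor of Cxcl13, the lowest at -0.069. Cxcr4, the receptor of Cxcl12, had -0.0062 with a 95% interval from -0.13 to 0.12. Ccr1, a receptor of Ccl3, had 0.022. The others were Ccr1l1 (0.0036), Ccr4 (0.025), Ccr6 (-0.018), Ccr9 (-0.013), Cxcr2 (-0.0032), Cxcr6 (-0.027) and Xcr1 (0.021). The atypical receptor Ackr3, which takes up Cxcl12, had log2 signals of 7.70, 7.98, 7.90, 7.94, 7.71 and 7.89 in FPI rats 1 to 6 and of 7.79, 7.95, 7.997, 7.89 and 7.97 in sham rats 1 to 5. FPI rats 1 and 5 were below every sham rat, and the log2 fold change was -0.066 (limma, adjusted p = 0.89). It ran from -0.0995 without sham rat 1 to -0.036 without FPI rat 1, and was -0.122 with array weights and -0.032 without the 3 rats that stood apart. Ackr2, a scavenger of inflammatory CC ligands, had log2 signals of 5.35, 5.496, 5.22, 5.47, 5.46 and 5.44 in FPI rats 1 to 6 and of 5.46, 5.25, 5.43, 5.42 and 5.39 in sham rats 1 to 5, a log2 fold change of 0.018. Its groups overlapped, its value without the 3 rats that stood apart was 0.043, and Ackr4, which takes up Ccl19 and Ccl21, was near background at -0.023.

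**Figure D4:**
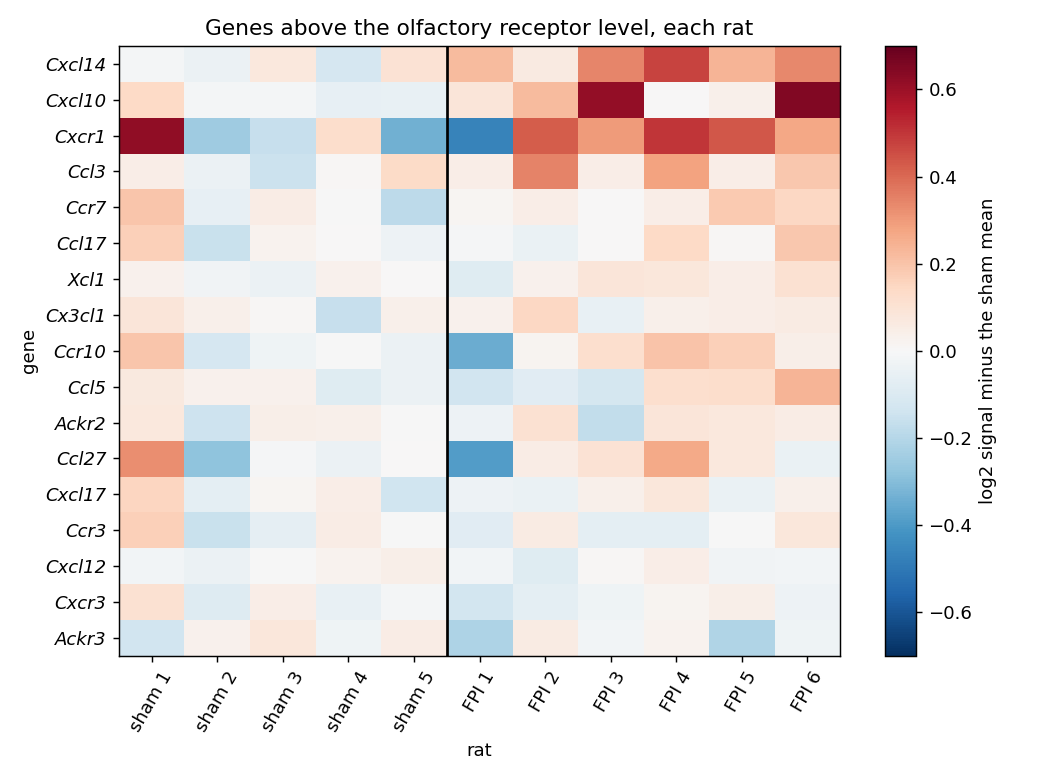
Log2 signal minus the sham mean (colour) of the 17 genes above the olfactory receptor mark (vertical axis) in each sham and FPI rat (horizontal axis), ordered by log2 fold change. Cxcl14, Cxcl10, Ccl3 and Ccr7 lie above their sham means in all 6 FPI rats, Cxcl10 is high in FPI rats 3 and 6, and Cxcr1 is high in sham rat 1 and low in FPI rat 1.

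Many chemokine genes lie next to each other, and 34 of the 53 formed 9 runs in the RefSeq annotation of GRCr8 with at most 2 protein-coding genes between neighbours. The genes with an unadjusted p under 0.05 lay in 3 of these runs, apart from Cxcl14, which lay in none, and no run held more than 1 of them. Beside Cxcl10 at 0.27, Cxcl11 and Cxcl9 had log2 fold changes of 0.060 and -0.044. Beside Ccl3 at 0.16, Ccl6 had 0.015 and Ccl4 had 0.041. Beside Ccl2 at 0.13, Ccl7 had -0.0028. The run of receptors Ccr9, Cxcr6, Xcr1, Ccr1, Ccr3, Ccr1l1 and Ccr2 spanned -0.027 to 0.022. Cxcl10 and Cxcl11 also overlap Art3, which had a log2 fold change of 0.020.

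**Figure D5:**
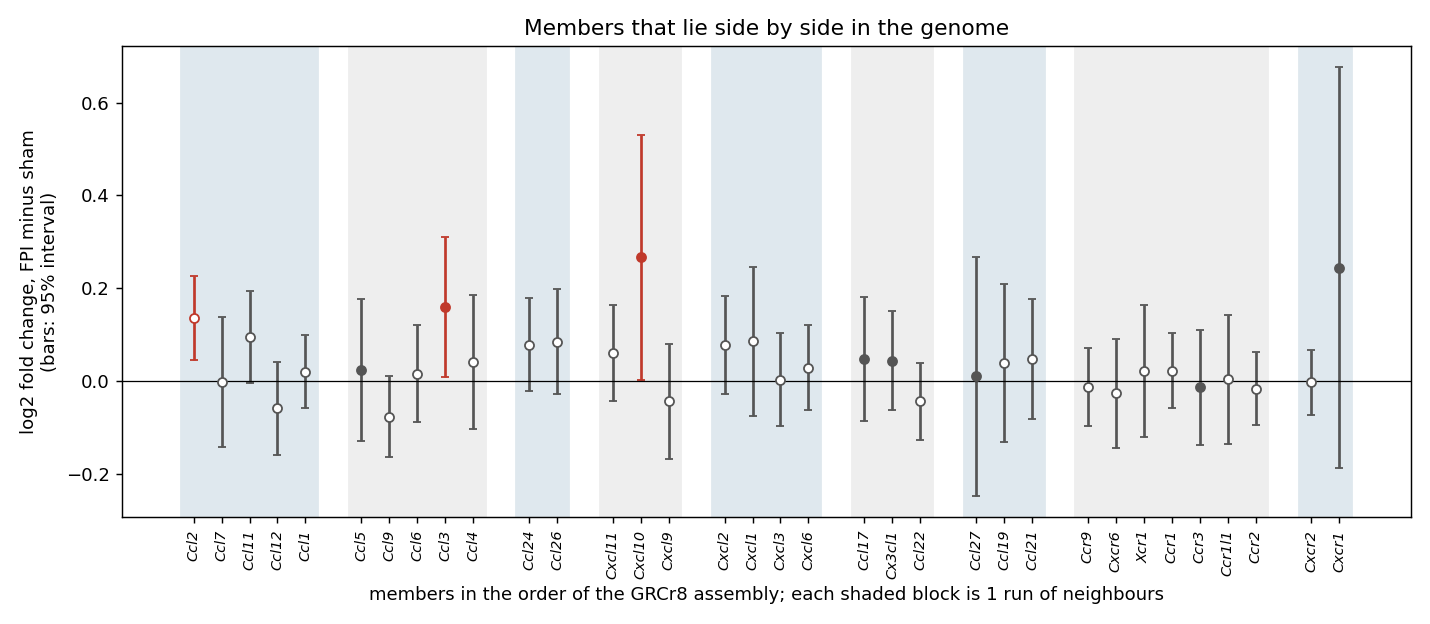
Log2 fold change (FPI minus sham, vertical axis, bars 95% intervals from limma) of the 34 genes that lie in runs of neighbours, in genome order (horizontal axis), with each run in a shaded block. Filled points stand above the olfactory receptor mark, open points near background, and red marks an unadjusted p under 0.05, which no 2 genes of a run share.

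Partners of the pathway (G protein subunits, heparan sulphate carriers, signalling enzymes and further ligands) were listed by name, and 34 of the 42 were tested. Of these, 4 were higher and 0 lower by the unadjusted threshold, where 4.96% and 1.87% of all probe sets were. The median log2 difference was 0.0099, and none passed an adjusted p of 0.05. The lowest p-values were those of Sdc4, a chemokine-binding proteoglycan, at 0.27 (adjusted p = 0.33), Cd74, a receptor of the cytokine MIF, at 0.48 (adjusted p = 0.48), and Pik3cg, the kinase downstream of chemokine receptors, at 0.17 (adjusted p = 0.61). Cx3cr1, the receptor of Cx3cl1, named here for that role after its values were seen, differed by 0.19 on the log2 scale (limma, adjusted p = 0.89). Of 17 genes tested from a list on NF-kappaB, interferon and cytokine signalling, 8 stood above background. Of the 17, 3 were higher at an unadjusted p under 0.05 in limma and 0 lower. The 3 were Stat3 at 0.16, Irf1 at 0.15 and Nfkb1 at 0.080, with adjusted p-values of 0.43, 0.45 and 0.73. The shares of all probe sets were again 4.96% and 1.87%.

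Markers of cells that make or follow chemokines were read beside these results, and their part in them was not tested. Their counts are to be read against the 4.96% of all probe sets that were higher and the 1.87% that were lower. Of 12 microglial genes, 11 above background, 3 were higher and 1 lower at an unadjusted p under 0.05, and their median log2 difference was 0.21. Their mean log2 signal ran from 6.43 to 6.79 in FPI and 6.19 to 6.66 in sham rats. Cd68, a lysosomal protein of phagocytes and the only one of the 12 near background (mean 4.66), had 0.58 (adjusted p = 0.14). Tyrobp, an adaptor of microglial receptors, had 0.24 and Aif1 -0.15. Of 6 astrocyte genes, 3 were higher at an unadjusted p under 0.05, and Gfap, the filament of reactive astrocytes, rose by 0.83 on the log2 scale (limma, adjusted p = 1.4e-05). The median over the 6 was 0.14, with 4 positive and 2 negative values, the latter Aldoc at -0.093 and Slc1a3 at -0.092, both named after their values were seen. Their mean ran from 9.72 to 9.89 in FPI and 9.47 to 9.85 in sham rats. Of 6 endothelial genes 2 were higher and 0 lower, and their mean ran from 6.19 to 6.32 in FPI and 6.11 to 6.28 in sham rats.

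Markers of blood-borne cells and of border macrophages gave 0 genes at an unadjusted p under 0.05 in limma. None of 7 neutrophil genes tested stood above background (mean 3.81 to 3.97 in FPI, 3.79 to 4.00 in sham rats), and of 12 T and NK cell genes Cd4 alone did (3.96 to 4.08 and 3.88 to 4.00). Cd3d, Cd3e and Cd3g were near background at 3.92, 3.82 and 3.10, so Cd4 alone cannot show that T cells were present. For border macrophages and monocytes 3 of 8 stood above background (5.01 to 5.06 and 4.95 to 5.04), namely Chi3l1, Vcan and Lyve1. Cd14, Cd163, Mrc1, Ms4a7 and Plac8 were near background, so the list mean cannot show that such cells were present. For B cells 3 of 4 stood above background (5.04 to 5.19 and 5.02 to 5.24), namely Pax5, Cd79b and Blk, as did 67.7% of all single-gene probe sets. Ms4a1 was near the floor at 3.07, so this list cannot show that B cells were present either. Fibroblast, choroid plexus, erythrocyte and granule cell genes also gave 0, with median log2 fold changes of 0.089, 0.013, 0.0084 and 0.032.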

How the data were processed

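RNA of the left dentate gyrus was hybridised to Affymetrix Rat Gene 1.1 ST arrays. The authors made the deposited log2 values with the Robust Multi-array Average of the oligo package (1.30.0 in the submitters' processing notes). Of 29214 probe sets, 18644 had 1 gene symbol. Values were raised to the floor of the methods, taken here as the lowest value readable in the authors' table, 3.06, and 739 probe sets at it in over 5 arrays were left out. FPI was compared with sham in the other 17905 by limma (version 3.58.1, R 4.3.3), and p-values were adjusted over the whole set by Benjamini-Hochberg. Each gene was represented by its probe set with the highest mean. Per-rat values are given for genes with an unadjusted p under 0.05, without overlap, or among the 10 highest means. Members and lists were chosen with earlier results of these data known. Alternatives covered the filter, scaling, variance prior, array weights, the test, the replicate block, probe set choice, single rats, the 3 rats apart and a component covariate. Scripts were tested on simulated data. Promoters came from RefSeq (GRCr8).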

Additional observations from a re-analysis of the deposited data

Results flagged for a closer look

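Of 26 groups of values checked over 13 genes, 2 held a rat far from the others of its group, where chance marks about 1 in 20. Cxcl10 in sham rat 1 was 4.77, the highest of its group, with the next rat at 4.61. Cxcr1 in FPI rat 1 was 4.88, the lowest of its group, with the next rat at 5.62.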

How the results depend on the processing

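The count of 0 genes with an adjusted p under 0.05 became 1, Cxcl14 (log2 fold change 0.28), with the component covariate and held under the other alternatives. The covariate was drawn from the same values, and its fit called 5.28% of all probe sets, so this call is no added support. The 4 genes higher at an unadjusted p under 0.05 became 1 with a mean of at least 5 (13 genes tested), 2 with median centring, quantile normalization or the methods' analysis of variance, 7 with array weights (10.4% of all probe sets higher, 7.66% lower), and 2 to 8 with 1 rat left out: 8 without sham rat 1 (5.51% of all) and 2 without sham rat 2, 3 or 4 or FPI rat 2. The 0 lower genes became 2, Ccl9 and Cxcr5, with centring (4.03% of all lower) or quantile normalization (2.8%). They became 1, Ccl9, with array weights (7.66%), the analysis of variance (1.84%) or without the 3 rats apart (10.4% of all lower and 9.76% higher). With 1 rat left out they were 0 to 1 (1 without sham rat 2, with 1.53% of all lower). Centring turned 888 higher and 334 lower probe sets into 511 and 722 at an unadjusted p under 0.05, and moved the median of all from 0.012 to -0.017. Among the 13 genes with per-rat values, which alone were followed gene by gene, these log2 fold changes turned sign: Ackr2 (-0.011 centred, -0.014 quantile), Ccl27 (-0.019 centred), Ccl5 (-0.0047 centred, -0.00064 quantile, -0.018 in the replicate block), Cxcl12 (0.020 quantile) and Ccr3 (0.0088 with array weights). With 1 rat left out, Ackr2 ran from -0.018 to 0.055, Ccl27 from -0.061 to 0.091, Ccl5 from -0.018 to 0.055 and Ccr3 from -0.052 to 0.028. The cause was not tested. The replicate block gave 2 higher genes (2.88% of all probe sets higher) and 0 adjusted calls among the 53. Rats of the same number did not deviate together (correlations -0.66 to 0.11), and the labels name no pairing. Since 1 component held 63.9% of the variance within groups, these correlations cannot exclude a shared litter or surgery day.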

Other observations

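One probe set is shared by Cxcl16, a membrane-bound ligand of Cxcr6, and Zmynd15, and was left out by the rule on single symbols. Its log2 fold change was 0.20 (adjusted p = 0.65 from limma over all probe sets), and the signal of the genes cannot be told apart.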
